A study of Saccharomyces cerevisiae with 74 samples.

Results

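DED1 and its paralog DBP1 were followed through all the libraries of a study of translation initiation factors in stressed budding yeast. The 2 genes were taken by name from the protein-coding rows of the count files, which hold 6551 Saccharomyces cerevisiae genes. They were chosen with earlier results of these data known, and the study itself had singled out DED1 mRNA as highly bound by Ded1. The values of Ded1 binding to DED1 are therefore not independent of that choice. DED1 (YOR204W) lies on chromosome XV at 722911 to 724725 and DBP1 (YPL119C) on chromosome XVI at 324411 to 326264 (coding sequences, RefSeq, assembly R64). DED1 mRNA was measured in 2 ways: as the RNA crosslinked to tagged initiation factors (CRAC, UV crosslinking and analysis of cDNA, 56 libraries) and as the poly(A) RNA of the cell (RNA-seq, 18 libraries).

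Ded1 is a DEAD-box RNA helicase, an enzyme that uses ATP to open RNA structure, and it is needed for scanning of mRNA 5′ leaders by the small ribosomal subunit. Dbp1 is its closest relative in yeast and can take over when overproduced in cells with defective Ded1. eIF4A, encoded by TIF1 and TIF2, is the DEAD-box helicase of the cap-binding complex, and eIF4B, encoded by TIF3, stimulates it. Ski2 is the helicase that feeds RNA to the cytoplasmic exosome for 3′ to 5′ decay, and Xrn1 is the cytoplasmic 5′ to 3′ exonuclease.

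All strains were haploid derivatives of BY4741, a MATa laboratory strain that lacks HIS3, LEU2, MET15 and URA3 function (his3Δ1, leu2Δ0, ura3Δ0, met15Δ0). For CRAC the chromosomal gene carried a tag: FH (Flag, alanine spacer, octahistidine) at the N terminus of Ded1 (FH-DED1) or of Tif1 (FH-TIF1, 1 of the 2 genes for eIF4A), or HF (the same elements in reverse) at the C terminus of Tif3 (TIF3-HF). A further 4 CRAC libraries came from untagged cells and serve as background. RNA-seq was made from strains with no tag, namely the wild type (wt), ski2Δ and xrn1Δ. Control cells grew at 30°C in 2% glucose. Glucose withdrawal (GE) was a transfer to 2% glycerol and 2% ethanol for 30 s or 16 min, heat shock was 16 min at 42°C, and mock cells were transferred for 16 min without stress. Heat shock in the presence of cycloheximide (CHX), an inhibitor of translation elongation, was done for eIF4B CRAC and wild-type RNA-seq. The Ded1 libraries comprised 3 control, 2 mock, 2 GE 30 s, 3 GE 16 min and 3 heat shock libraries. For eIF4B there were 4, 3, 2, 3 and 4 libraries of these kinds and 2 of heat shock with CHX, and for eIF4A 6, 4, 3, 4 and 4. The eIF4A library 51 is given as 16 min in its title and source name and as 30 s in its description, and was placed at 30 s. RNA-seq held 3 wild-type control, 2 GE 16 min, 3 heat shock and 2 heat shock with CHX libraries, and for each deletion 2 control and 2 heat shock libraries. The study's methods call the RNA-seq libraries biological duplicates. For CRAC they do not say whether libraries came from separate cultures, so there the p-values measure the spread between libraries, which may in part be technical.

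The FH-DED1 strain is where the CRAC of Ded1 was done, so in those cells the DED1 mRNA itself was altered. The sequences of the edit are shown because they place the insertion on the DED1 transcript. The guide and the repair oligonucleotide, both designed by the study, meet at the start codon, with 19 bases of the guide before the start codon and 1 base inside it. In the guide the capital marks the first base of the start codon. In the edited gene the capitals mark the start codon, which is followed by the added asparagine codon and the Flag codons.
DED1 guide: aagaaaagcatttcatattA
Edited DED1 start: ATGaacgactataaagatgacgatgacaag
DED1 mRNA was not measured by RNA-seq in the tagged strain, so a difference in DED1 amount between FH-DED1 cells and the other strains cannot be told apart from a difference in binding. The eIF4A and eIF4B strains carried no tag on DED1.

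CRAC libraries held between 671478 and 4385132 counted reads for Ded1, 183689 and 4139812 for eIF4B and 197561 and 1916658 for eIF4A, of which between 13.7% and 72.4% lay on mRNAs. RNA-seq libraries held 26398967 to 46538567 counted S. cerevisiae reads and 531145 to 990246 reads of the added S. pombe RNA. CRAC values are given as reads per 1000000 counted reads (RPM), a share of the library, and RNA-seq values as reads per 1000000 S. pombe reads, called spike-scaled reads. The S. pombe RNA was added as a fixed share of each RNA sample, so spike-scaled reads follow the amount of an mRNA in total RNA, not per cell. The deletion labels held: SKI2 had 5 to 14 reads in ski2Δ libraries against 1750 to 7268 elsewhere, and XRN1 had 59 to 202 in xrn1Δ libraries against 5093 to 21964. An mRNA was called changed at a Benjamini-Hochberg adjusted p below 0.05 over all mRNAs tested, and log2 fold changes are given with their standard error (SE).

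The question put to the RNA-seq data was whether the amount of each mRNA changed in stress. DED1 mRNA did not pass the test in any wild-type stress, while DBP1 mRNA rose in all 3. In control cells DED1 measured 9944, 10437 and 11048 spike-scaled reads. The glucose-withdrawn libraries gave 8606 and 7180, both below the lowest control. After heat shock the values were 9984, 7932 and 13342, which spread to both sides of the controls. With CHX present they were 10747 and 10544, inside the control range. The log2 changes of DED1 were −0.41 (SE 0.19, adjusted p = 0.0596) for GE, −0.01 (SE 0.17, adjusted p = 0.968) for heat shock and 0.02 (SE 0.19, adjusted p = 0.919) for heat shock with CHX, by edgeR's quasi-likelihood test.

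**Figure D1:**
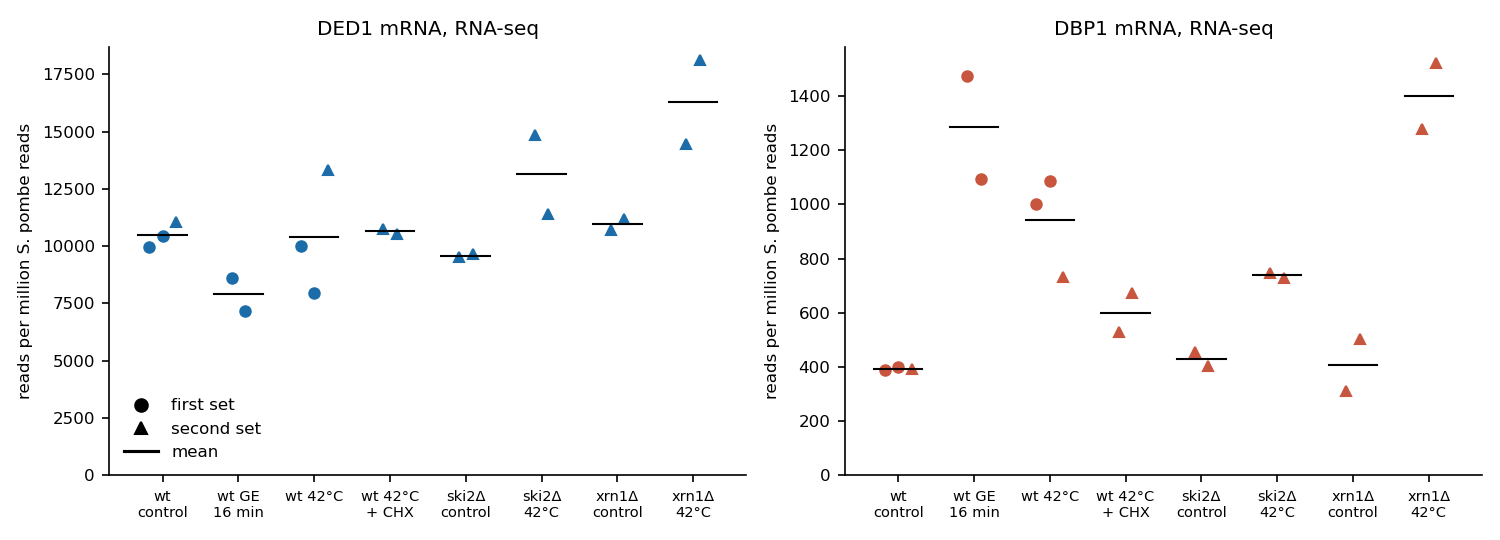
DED1 (left) and DBP1 (right) in each RNA-seq library, in reads per 1000000 S. pombe reads, with circles for the first set of libraries (A to F), triangles for the second set (H to S) and lines for group means. The wild-type DED1 values of heat shock range from 7932 to 13342 around controls of 9944 to 11048, whereas every DBP1 value of a stressed wild-type library lies above the highest control of 400.5.

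DBP1, at 388.8, 400.5 and 390.9 spike-scaled reads in control cells, measured 1476 and 1095 after glucose withdrawal. The 2 groups were separate, with a log2 change of 1.71 (SE 0.21, adjusted p = 5.52e-15). Heat shock gave 1003, 1088 and 732.6, a log2 change of 1.26 (SE 0.19, adjusted p = 1.27e-10). In heat shock with CHX the values were 527.3 and 672.9, lower than in any library of heat shock alone and above every control. The change against control was 0.61 on the log2 scale (SE 0.21, adjusted p = 0.00648), and the change against heat shock alone was −0.65 (SE 0.21, adjusted p = 0.00319). Without library O the first of these was 0.42 (adjusted p = 0.153), and without library J the second was −0.48 (adjusted p = 0.0938). Both CHX libraries belong to the second set (H to S), whose only wild-type heat shock library (I) held 732.6. With a term for the set of libraries the change against heat shock alone was −0.46 (adjusted p = 0.0722). An effect of CHX was thus not separated from a difference between sets.

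Calls were common in these comparisons. Of the 6319 mRNAs tested, 18.4% rose and 40.4% fell after glucose withdrawal, 17.4% rose and 63.3% fell after heat shock, and 39.4% rose and 32.1% fell in heat shock with CHX. Against heat shock alone, 78.8% were higher with CHX and 2.88% lower, so DBP1 belonged to the smaller side of that comparison. DED1 did not pass the test there (log2 change 0.03, SE 0.19, adjusted p = 0.883). The median log2 change of all mRNAs in heat shock was −0.77, and relative to it DED1 stood at 0.76 and DBP1 at 2.03. With library sizes from the reads on S. cerevisiae mRNAs in place of S. pombe reads, that median was −0.37 and DED1 was called higher after heat shock, by 0.36 on the log2 scale (adjusted p = 0.00565), and with TMM normalization by 0.87 (adjusted p = 2e-05). Under both, DBP1 was called higher in all 3 stresses, as on the S. pombe scale.

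Heat shock was measured in both sets of RNA-seq libraries, labelled A to F and H to S, and DED1 differed in sign between them. The first set had controls of 9944 and 10437 and heat shock values of 9984 and 7932, a log2 change of −0.19 (adjusted p = 0.392). The second set had 1 control of 11048 and 1 heat shock library of 13342, a log2 change of 0.27 (adjusted p = 0.382, with the spread taken from all groups). DBP1 was higher in heat shock in both sets, by 1.41 (adjusted p = 6.51e-11) and by 0.91 (adjusted p = 0.00408) on the log2 scale.

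Because the library scale cancels in a ratio of 2 genes, the reads of DED1 per read of DBP1 were compared within each library. Control cells held 25.6, 26.1 and 28.3 DED1 reads per DBP1 read. After glucose withdrawal the ratio was 5.83 and 6.56, and after heat shock 9.96, 7.29 and 18.2. Heat shock with CHX gave 20.4 and 15.7. None of these stressed libraries reached the lowest control. The exact two-sided permutation test gave p = 0.1 in each of the 3 comparisons (adjusted p = 0.125 over 5 ratio tests), which is the smallest p these group sizes allow, so the design could not pass 0.05. The log2 differences of the ratio were −2.11, −1.28 and −0.57.

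**Figure D2:**
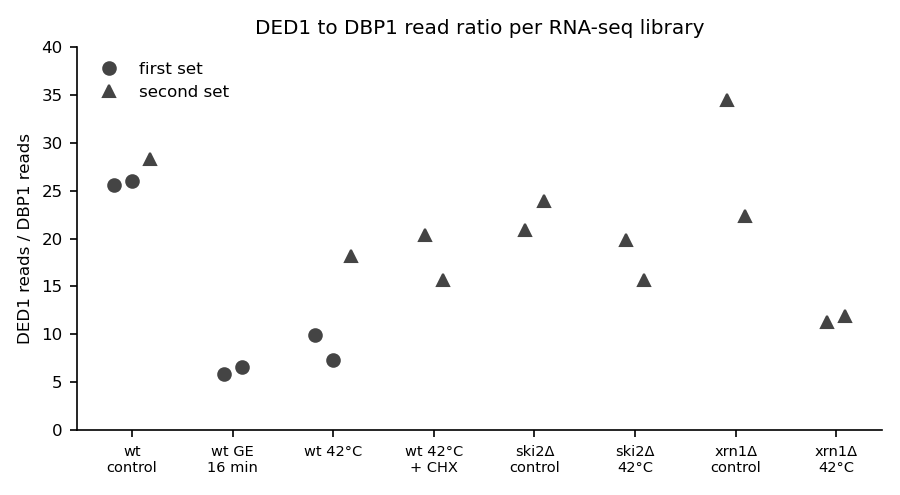
Reads on DED1 divided by reads on DBP1 in each RNA-seq library (y axis, no unit), by strain and treatment, with circles for the first and triangles for the second set. Wild-type controls lie at 25.6 to 28.3 and the glucose-withdrawn libraries at 5.83 and 6.56.

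The counted features are longer than the coding sequences. From the RPKM values that the authors deposited, the length of the counted feature came out as 2507 nt for DED1, which is 692 nt more than its coding sequence of 1815 nt, and as 1945 nt for DBP1, 91 nt more than its 1854 nt. Per length, DED1 was the more abundant mRNA in each of the 8 groups. The authors' RPKM in wild-type control was 80.8 ± 0.616 for DED1 and 3.92 ± 0.233 for DBP1 (SD, n = 3). In glucose-withdrawn cells it was 74.5 ± 6.05 and 15.6 ± 2.55 (SD, n = 2), the nearest that the pair came to each other. The files also count YOR203W, which by its name lies between HIS3 and DED1 and whose counted length of 354 nt is more than the 302 bases between those coding sequences, so some reads at the DED1 5′ end may be counted for both.

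The deletion strains asked whether loss of a decay enzyme changed the response. In unstressed cells neither gene passed the test between a deletion and the wild type. DED1 measured 9525 and 9648 in ski2Δ and 10695 and 11193 in xrn1Δ, and DBP1 measured 455.5 and 403.7 in ski2Δ and 309.9 and 500.8 in xrn1Δ. The 4 log2 differences lay between −0.13 and 0.13 (edgeR, lowest adjusted p = 0.804), while 0.253% of all mRNAs were called for ski2Δ and 54.4% for xrn1Δ. The ratio of DED1 to DBP1 reads was 20.9 and 23.9 in ski2Δ, below all 3 wild-type controls (exact permutation p = 0.1, adjusted p = 0.125), and 34.5 and 22.3 in xrn1Δ (exact permutation p = 0.8).

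After heat shock both mRNAs rose in both deletion strains. All libraries of the deletion strains belong to the second set. In that set wild-type DED1 was also higher in heat shock, at 13342 (library I) against 11048 in control (library H), a log2 change of 0.27. Wild-type DBP1 changed by 0.91 there. In ski2Δ, DED1 went from 9525 and 9648 to 14869 and 11390, a log2 change of 0.45 (SE 0.21, adjusted p = 0.0402), a call that 15% of mRNAs shared in this direction and that was lost when library L was left out (0.25, adjusted p = 0.355) and when either control was left out. In xrn1Δ it went from 10695 and 11193 to 14470 and 18149, a log2 change of 0.58 (SE 0.21, adjusted p = 0.00888), where 13% of mRNAs rose. Without library S this was 0.40 (adjusted p = 0.124). DBP1 in ski2Δ reached 747.5 and 729.4 (log2 change 0.78, SE 0.23, adjusted p = 0.00121), and in xrn1Δ 1280 and 1521 (log2 change 1.79, SE 0.24, adjusted p = 2.76e-13). The highest RNA-seq value of each gene was in a heat-shocked xrn1Δ library, although the group overlapped heat-shocked ski2Δ for DED1 and glucose-withdrawn wild type for DBP1.

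Compared with heat-shocked wild type, xrn1Δ held more DED1 (log2 0.65, SE 0.19, adjusted p = 0.00191) and more DBP1 (log2 0.57, SE 0.20, adjusted p = 0.0107), in a comparison that called 53.9% of mRNAs. Without library S neither passed the test (DED1 0.47, adjusted p = 0.0872, and DBP1 0.44, adjusted p = 0.142), and with a term for the set of libraries DED1 was 0.43 (adjusted p = 0.0913). Heat-shocked ski2Δ against wild type did not pass the test for DED1 (log2 0.33, SE 0.19, adjusted p = 0.538) or DBP1 (log2 −0.35, SE 0.21, adjusted p = 0.548), with 2.18% of mRNAs called. The test of the difference between heat shock changes did not pass for either gene. For xrn1Δ against wild type it gave 0.58 (SE 0.27, adjusted p = 0.104) for DED1 and 0.53 (SE 0.30, adjusted p = 0.187) for DBP1, with 24.7% of mRNAs called. For ski2Δ it gave 0.46 (SE 0.27) and −0.48 (SE 0.30), both with adjusted p = 0.978, and 0.0317% of mRNAs called.

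To place the pair among the other helicases, 24 further DEAD-box genes were tested in the same fits. In wild-type heat shock 23 of the 24 fell and 1 rose, where 63.3% of all mRNAs fell and 17.4% rose. The median log2 change of the 24 was −3.21 against −0.77 for all mRNAs. The largest falls were those of RRP3 (−4.23), ROK1 (−4.12), DBP9 (−4.03) and DBP3 (−3.89), all of which encode helicases of ribosome synthesis (edgeR, highest adjusted p = 1.4e-79, SE 0.18 to 0.19). DHH1, which encodes an activator of decapping, was the member that rose, by 0.34 on the log2 scale (SE 0.16, adjusted p = 0.0494). The genes for eIF4A had log2 changes of −2.90 (TIF1) and −2.95 (TIF2). With library sizes from mRNA reads 22 fell and 1 rose, and with TMM 21 fell and 2 rose (DHH1 and PRP5, which encodes a splicing helicase). The medians of the 24 were then −2.82 and −2.34. The shares of all mRNAs that fell or rose were not counted under these scalings, which also moved the median of all mRNAs upward.

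**Figure D3:**
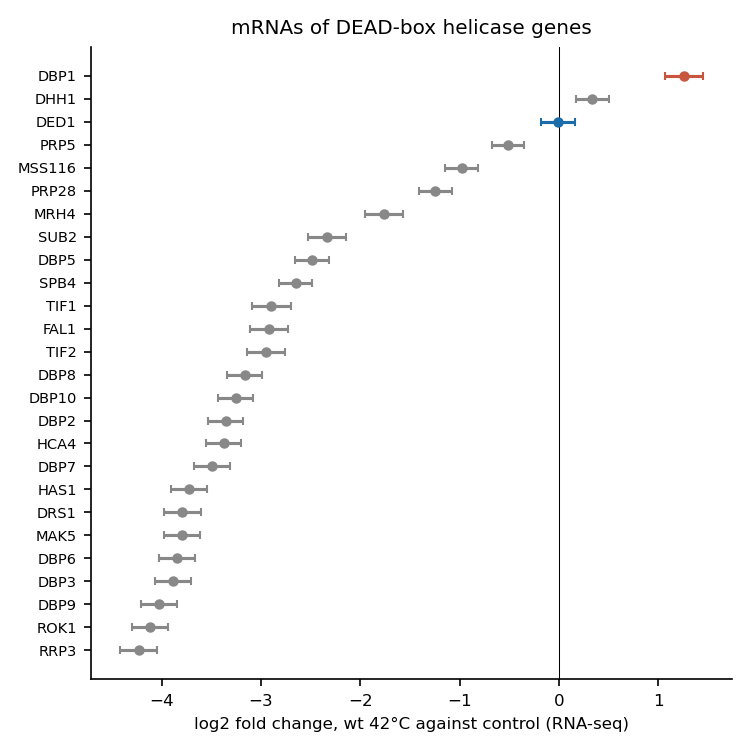
Log2 fold change of DEAD-box helicase mRNAs in heat-shocked against control wild-type cells (x axis), 1 gene per row, with bars of 1 SE from the edgeR fit over 18 libraries. DED1 (blue, −0.01, but 0.36 or 0.87 with library sizes from mRNA reads or TMM) and DBP1 (red, 1.26) lie at the upper end, and 23 of the other 24 genes (grey) lie below 0.

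The deletion strains were tested on the same list. In ski2Δ heat shock 23 of 24 fell and 1 rose (65% of all mRNAs fell), and in xrn1Δ all 24 fell (67.5% of all mRNAs fell). After glucose withdrawal 21 fell, 1 rose and 2 were not called (40.4% of all mRNAs fell and 18.4% rose), with the largest changes in DBP7 (−2.10, SE 0.19, adjusted p = 8.8e-24), DBP10 (−1.98), HAS1 (−1.88) and DBP3 (−1.71), again genes of ribosome synthesis. In heat shock with CHX 20 fell and 4 were not called (32.1% of all mRNAs fell). The largest changes there were those of DBP3 (−2.83, SE 0.20), DBP2 (−2.70), DBP6 (−2.59) and HAS1 (−2.36).

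Of 7 mRNAs for partners of these factors in initiation, 6 fell and 1 was not called in wild-type heat shock, where 63.3% of all mRNAs fell. TIF3 (eIF4B) fell by 3.88 (SE 0.20), TIF4631 (eIF4G1) by 3.56 (SE 0.19) and PAB1 (the poly(A)-binding protein) by 2.79 (SE 0.19) on the log2 scale, and EAP1, which encodes an eIF4E-binding protein, was the one not called (−0.07, adjusted p = 0.697). EAP1 was called higher with library sizes from mRNA reads or TMM. Glucose withdrawal called 5 of the 7 lower (40.4% of all mRNAs), led by TIF4631 (−1.57), TIF3 (−1.48) and CAF20 (−1.34), another gene for an eIF4E-binding protein. With CHX in heat shock, 5 were called lower than in control (32.1% of all mRNAs), led by TIF4631 (−2.36), CDC33 (−2.05, eIF4E) and TIF3 (−1.92), and EAP1 was called higher (0.70). In each deletion strain 6 of the 7 fell in heat shock, beside 65% of all mRNAs in ski2Δ and 67.5% in xrn1Δ.

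CRAC asked how much of each factor's bound RNA was DED1 or DBP1. In unstressed cells DED1 took 1221, 1169 and 890.6 RPM of the Ded1 libraries, 753.0, 645.0, 464.8 and 348.0 RPM of the eIF4B libraries and between 0 and 233.8 RPM (median 142.5) of the 6 eIF4A libraries. Every Ded1 library was above every eIF4B library. DED1 was higher in Ded1 than in eIF4A libraries, by 3.08 on the log2 scale (SE 0.57, adjusted p = 0.0016, edgeR), among 1.77% of mRNAs called and against a median of 1.07 over all mRNAs. This call was lost under TMM normalization (1.98, adjusted p = 0.199). Against eIF4B the difference was 0.99 (SE 0.63) and did not pass the test (adjusted p = 1, 0.627% of mRNAs called).

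Untagged cells gave few reads, and DED1 was among them. The 4 untagged libraries held 0 of 347, 8 of 46692, 4 of 8140 and 14 of 5798 reads on DED1. The last 3 correspond to 171.3 RPM (exact 95% interval 74.0 to 337.6), 491.4 RPM (133.9 to 1258) and 2415 RPM (1321 to 4048), and for the first the exact upper limit is 10574.5 RPM. These intervals cover counting error only. As a share of a library, the background therefore reached the DED1 share of the Ded1 libraries, while in reads it was at most 14 against 598 to 3391 in the Ded1 controls. DBP1 had no read in any untagged library, which in the largest has an exact 95% upper limit of 79.0 RPM.

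Set against abundance, both CRAC and RNA-seq count the same feature, so its length cancels. Ded1 control libraries held 104.4 RPM of DED1 per 1000 reads of DED1 in wild-type RNA-seq (spike-scaled reads), which was rank 10 of the 4432 mRNAs with at least 20 RPM among the 5000 most abundant, and rank 63 of all 4596 mRNAs with at least 20 RPM. The 5 highest of the former were DAP1 (255.1), PCL5 (178.0), HMS2 (143.0), CNL1 (126.4) and SRO9 (120.1). For eIF4B the same quantity for DED1 was 52.8 and for eIF4A 12.2, against medians over mRNAs of 12.9 and 9.07. DBP1 stood at 10.05 in Ded1, 43.1 in eIF4B and 23.2 in eIF4A control libraries, all from few reads. The eIF4A value rests on library 11, with 52 reads (41.9 RPM), and was 6.51 without it (n = 5). These are descriptions of means and carry no test.

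Binding of Ded1 to DED1 mRNA did not pass the test in any stress. Mock-treated cells gave 1396 and 1385 RPM, above all 3 controls. At 30 s after glucose withdrawal the values were 696.1 and 624.3 RPM, below every control, and at 16 min 754.6, 896.7 and 752.7 RPM, with the highest of these just above the lowest control of 890.6. Heat shock gave 832.9, 1104 and 793.6 RPM, which overlapped the controls. The log2 changes were −0.73 (SE 0.32, adjusted p = 0.146), −0.45 (SE 0.28, adjusted p = 0.363) and −0.27 (SE 0.28, adjusted p = 0.533). The share of all mRNAs called was 8.16% at 30 s and 3.9% at 16 min, and in heat shock 3.76% rose and 23% fell. The medians over all mRNAs were −0.97, −0.71 and −0.82, so DED1 lay above the median in each stress, by 0.24, 0.26 and 0.56. The sign of the DED1 changes was not stable: with TMM normalization they were 0.08, 0.29 and 0.48, none of them called. With mock as reference the changes were larger falls, of −1.07 (adjusted p = 0.0549), −0.79 (adjusted p = 0.145) and −0.61 (adjusted p = 0.159), also not called. Of the 24 other DEAD-box mRNAs, 18 fell in Ded1 CRAC in heat shock and none rose (median −3.60), and of the 7 partner mRNAs 5 fell (median −2.68). With TMM normalization 14 of the 24 fell and 1 rose (DHH1). Their median was then −2.85 against −0.07 for all mRNAs, whose shares by direction were not counted under TMM.

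**Figure D4:**
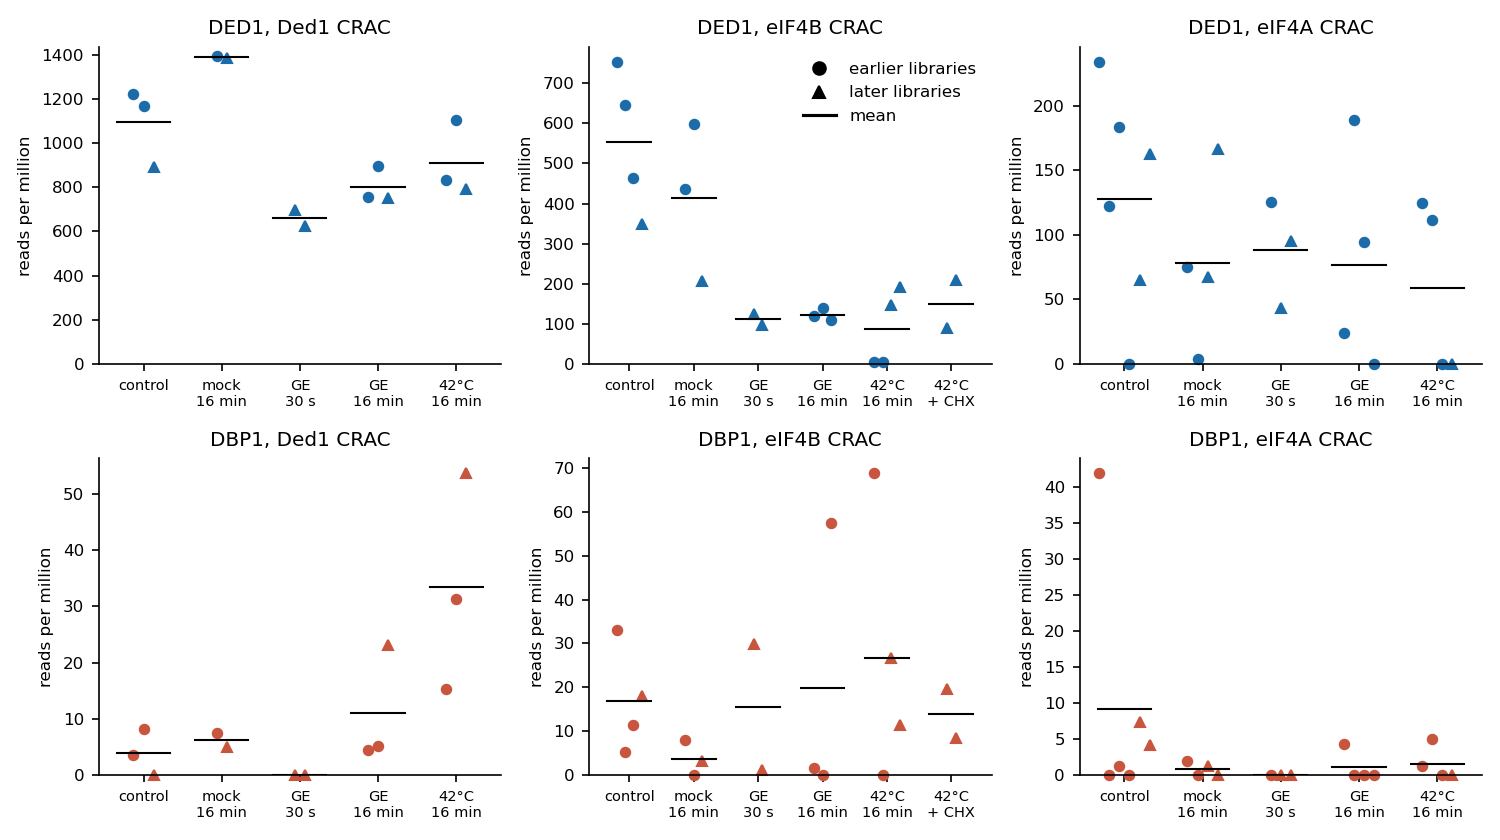
Reads per 1000000 counted reads on DED1 (top) and DBP1 (bottom) in each CRAC library of Ded1, eIF4B and eIF4A by treatment, with circles for libraries with earlier numbers, triangles for later ones and lines for group means (each panel has its own y axis from 0). DED1 in Ded1 libraries stays between 624.3 and 1396 RPM, and in eIF4B libraries it is 348.0 to 753.0 RPM in control and 98.1 to 139.4 RPM after glucose withdrawal.

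As a share of counted reads, DED1 was lower in each stressed eIF4B library than in every control, and the change passed the test at 16 min of glucose withdrawal and in heat shock but not at 30 s or with CHX. Both calls were lost when the library size was taken from reads on mRNAs or by TMM. Control libraries held 753.0, 645.0, 464.8 and 348.0 RPM and mock libraries 436.6, 599.0 and 206.9 RPM. After 30 s without glucose DED1 stood at 125.5 and 98.1 RPM and after 16 min at 120.8, 139.4 and 110.1 RPM, so that no glucose-withdrawn library reached any control. The log2 change was −2.30 (SE 0.85, adjusted p = 0.0617) at 30 s, which did not pass and was −0.24 (adjusted p = 0.935) with reads on mRNAs as the library size, and −2.16 (SE 0.72, adjusted p = 0.0293) at 16 min, which did. The share called was 10.7% at 30 s, and at 16 min 17.5% of mRNAs fell. The medians over all mRNAs were −2.24 and −1.75, so the fall of DED1 was close to that of a typical mRNA. With reads on mRNAs as the library size the 16 min change was −0.51 (adjusted p = 0.754) and with TMM −0.80 (adjusted p = 0.649), and leaving out library 08, 09, 21, 22 or 27 also ended the call, at adjusted p from 0.0581 to 0.0834.

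In heat shock the 4 eIF4B libraries held 4.30, 5.44, 147.1 and 190.9 RPM of DED1. The first 2, libraries 23 and 56, had 1 DED1 read each, under their floors of 12.9 and 16.3 RPM (3 counts), and the others, libraries 75 and 98, had 238 and 385. All 4 lay below the lowest control. The log2 change was −2.58 (SE 0.65, adjusted p = 0.00203), where 23.5% of mRNAs fell and the median was −1.45. The size depended on the libraries compared. Among earlier libraries (up to number 56) it was −6.98 (adjusted p = 2.45e-07) and among later ones, with 1 control of 348.0 RPM, −1.04 (adjusted p = 0.616). With reads on mRNAs as the library size it was −1.51 (adjusted p = 0.0939), and with TMM normalization −1.36 (adjusted p = 0.195).

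With CHX during heat shock, eIF4B libraries held 89.8 and 209.4 RPM of DED1, below every control, with the first inside the range of heat shock alone and the second above it. Neither comparison passed the test: the log2 change was −1.88 (SE 0.82, adjusted p = 0.309, 3.4% of mRNAs called) against control and 0.70 (SE 0.74, adjusted p = 0.645, 7.4% called) against heat shock. Relative to the median over all mRNAs DED1 stood at −1.56 and −0.54. Both CHX libraries and heat shock library 98 were counted with a later version of the annotation (5.6 in place of 5.4). In these 3 libraries counted reads were 118.7% to 130.4% of mapped reads, against 90.1% to 99.4% in the other CRAC libraries, which lowers their RPM. With mapped reads as the library size the changes were −1.56 (adjusted p = 0.547) against control and 0.79 (adjusted p = 0.571) against heat shock, and that of heat shock alone was −2.34 (adjusted p = 0.00598). Against heat shock alone, 8 of the 24 other DEAD-box mRNAs and 5 of the 7 partner mRNAs were called higher with CHX in eIF4B CRAC, but 2 and 0 with TMM normalization. In that comparison TMM called 100 of all mRNAs, in either direction.

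Whether eIF4B and Ded1 differed in their change on DED1 was tested directly, in a fit added after the values were seen. The change in Ded1 minus that in eIF4B was 1.57 (SE 0.85, adjusted p = 0.341) at 30 s and 1.71 (SE 0.76, adjusted p = 0.246) at 16 min of glucose withdrawal, and 2.28 (SE 0.73, adjusted p = 0.426) in heat shock, with 0.628%, 1.22% and 0.0175% of mRNAs called. None passed after adjustment, and the unadjusted p for heat shock was 0.00275. The medians over all mRNAs were 1.23, 1.08 and 0.62.

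eIF4A libraries were sparse on DED1. Control values ran from 0 to 233.8 RPM (median 142.5, n = 6), mock from 3.84 to 166.7 (n = 4), GE 30 s from 43.5 to 125.8 (n = 3), GE 16 min from 0 to 188.7 (n = 4) and heat shock from 0 to 124.6 (n = 4), where 2 of the 4 libraries had no DED1 read. All groups overlapped. The log2 changes of −0.54 (SE 1.59) at 30 s, −0.74 (SE 1.45) at 16 min and −1.12 (SE 1.47) in heat shock did not pass (edgeR, lowest adjusted p = 0.63), with 0, 0.144% and 7.52% of mRNAs called. Where edgeR called 0 mRNAs, at 30 s, 765 had an unadjusted p below 0.05 and DESeq2 called 207.

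**Figure D5:**
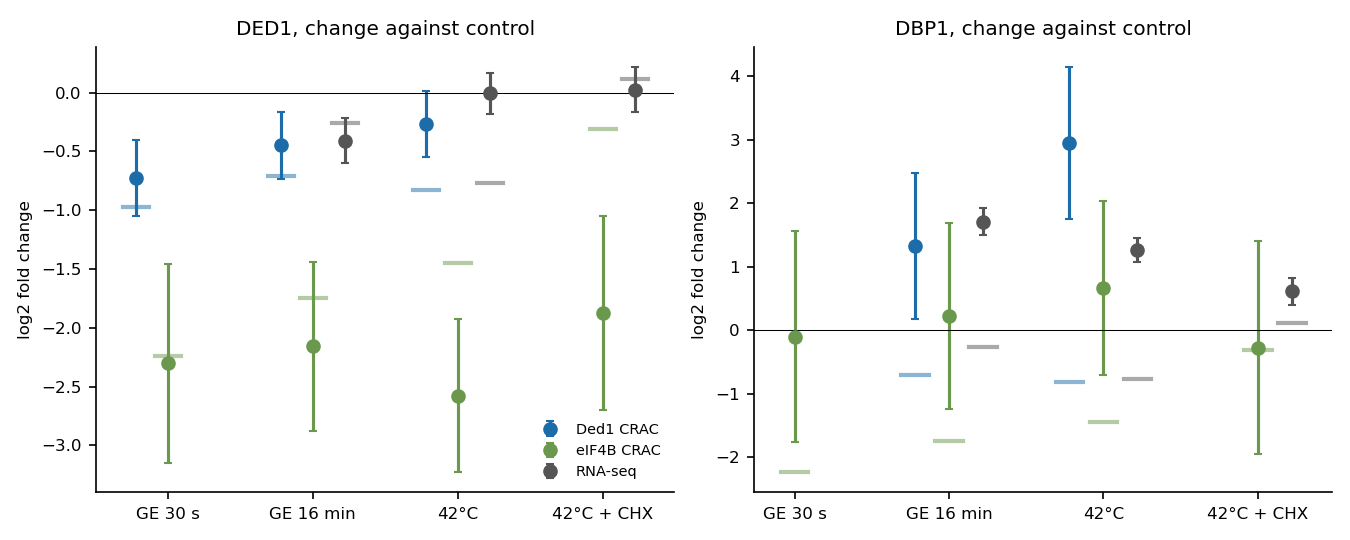
Log2 fold change against control of DED1 (left) and DBP1 (right) in Ded1 CRAC (blue), eIF4B CRAC (green) and wild-type RNA-seq (grey), with bars of 1 SE and short horizontal lines for the median over all mRNAs tested. DED1 in eIF4B CRAC lies at −2.16 after 16 min of glucose withdrawal and −2.58 in heat shock, while its RNA-seq change is −0.41 and −0.01. The DBP1 value for Ded1 at 30 s, with no read in either library, is not drawn.

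DBP1 gave few CRAC reads. Ded1 control libraries held 10, 20 and 0 DBP1 reads (3.601, 8.256 and 0 RPM) and mock libraries 21 and 11. Neither GE 30 s library had a read, and GE 16 min libraries had 14, 23 and 35. Heat shock libraries had 40, 74 and 78 reads, or 15.3, 31.2 and 53.7 RPM, all above every control, mock and GE 30 s library. They overlapped the GE 16 min libraries, of which library 67 held 23.2 RPM, above the lowest heat shock value. The other GE 16 min libraries lay below every heat shock library. The log2 change in heat shock was 2.94 (SE 1.20, adjusted p = 0.0709) and did not pass. With mock as reference it was 2.42 (adjusted p = 0.204) and with a term for earlier and later libraries 2.71 (adjusted p = 0.106). In the earlier libraries alone it was 1.97 (adjusted p = 0.251), and with each library left out it ranged from 2.43 to 3.89 without passing. It did pass with reads on mRNAs as the library size (3.19, adjusted p = 0.0481), with TMM (3.55, adjusted p = 0.0288) and with DESeq2 (2.96, adjusted p = 0.0217).

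eIF4B libraries held DBP1 at 33.1, 5.23, 11.4 and 18.0 RPM in control, 8.09, 0 and 3.16 RPM in mock, 29.9 and 1.05 RPM at 30 s and 1.70, 0 and 57.5 RPM at 16 min of glucose withdrawal. Heat shock gave 68.8, 0, 26.6 and 11.4 RPM, and heat shock with CHX 19.6 and 8.45 RPM. The groups overlapped throughout and no change passed the test (edgeR, lowest adjusted p against control 0.769 in the stresses). In eIF4A DBP1 did not pass the filter on low counts, and 20 of the 21 libraries held 9 or fewer reads.

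The last question was whether binding changed beyond abundance. In a joint limma voom fit of CRAC and wild-type RNA-seq, the change in Ded1 CRAC minus the change in RNA-seq for DED1 was −0.06 (SE 0.33, adjusted p = 0.925) after 16 min of glucose withdrawal and −0.26 (SE 0.33, adjusted p = 0.85) in heat shock, with 12.8% and 0.375% of mRNAs called. For eIF4B it was −1.62 (SE 1.02, adjusted p = 0.251), −3.40 (SE 1.00, adjusted p = 0.152) and, with CHX, −1.71 (SE 1.04, adjusted p = 0.887). The eIF4B fit called 17.1% of mRNAs after glucose withdrawal and 0 of 5411 in the other comparisons, where 804 and 298 mRNAs had an unadjusted p below 0.05 and an edgeR joint fit called 16 and 0. For eIF4A the values of −1.005 (SE 1.76) and −2.51 (SE 1.76) did not pass either, with 0.362% and 0.0301% called. DBP1 gave −0.43 (SE 1.07) and 1.93 (SE 1.00, adjusted p = 0.501) in Ded1 and −3.68 (SE 1.34, adjusted p = 0.054), −1.01 (SE 1.16) and −0.76 (SE 1.37) in eIF4B. The sizes depend on the fit where reads are few. For the −3.68, from eIF4B GE libraries with 1, 0 and 35 DBP1 reads, the separate edgeR changes were 0.22 (CRAC) and 1.71 (RNA-seq). For the −3.40 of DED1 in heat shock they were −2.58 and −0.01. Relative binding was thus not shown to change in any comparison tested, and DBP1 in eIF4A was not tested. The SE was 0.33 for DED1 in Ded1 and larger than 0.99 on the log2 scale for all the other values.

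As means, Ded1 held 104.4 RPM of DED1 per 1000 RNA-seq reads in control, 101.5 after 16 min of glucose withdrawal and 87.3 in heat shock. The corresponding eIF4B values were 52.8, 15.6 and 8.35, and 14.1 with CHX. The 8.35 of heat shock averages unlike libraries: 23 and 56 with 1 DED1 read each, and 75 and 98 with 147.1 and 190.9 RPM. Over all mRNAs with at least 20 RPM the medians were 15.3, 12.3 and 16.7 for Ded1 and 12.9, 7.27, 10.5 and 11.0 for eIF4B.

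Finally, mRNAs with a pattern like that of each gene were looked up over the 8 RNA-seq group means of log2 level among the 5000 most abundant mRNAs. The highest Pearson correlations to DED1 were those of DAP1 (0.92), MUP3 (0.92), TRX3 (0.87), PDR12 (0.86) and HAC1 (0.86). To DBP1, which lies outside the 5000 itself, they were those of USV1 (0.92), SPG4 (0.92), GLC3 (0.91), YIL055C (0.91) and YLR149C (0.90). DED1 and DBP1 had a correlation of 0.20 with each other. With 8 points that share libraries and a scale, these are descriptions.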

How the data were processed

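The authors deposited, for each of 74 libraries, a file of read counts and RPKM per feature. By their methods, CRAC reads were demultiplexed, trimmed, collapsed by duplicates, aligned with Novoalign to a genome without introns, placing multiply mapping reads at random, and counted with pyReadCounters. RNA-seq reads were aligned with Novoalign to that genome joined with that of S. pombe, with no duplicate removal stated. The deposited counts used here are reads on the sense strand for CRAC and on the opposite strand for RNA-seq. RPKM values were used as the authors computed them, and from them the length of each counted feature was derived. The file headers name annotation 5.4 for 53 CRAC and 18 RNA-seq libraries and 5.6 for 3 CRAC libraries. The unnamed row held at most 0.0181% of reads and was left out.

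Changes were tested on counts with edgeR 4.0.16 (quasi-likelihood test) in R 4.3.3, 1 fit per CRAC factor and 1 for RNA-seq, with library sizes from all counted reads (CRAC) or S. pombe reads (RNA-seq), a filter on low counts (minimum 10, total 15) and Benjamini-Hochberg adjusted p below 0.05. Every adjusted p with a log2 change is from edgeR unless named otherwise. Relative binding used limma 3.58.1 (voom). Alternatives were DESeq2 1.42.0, other library sizes (mapped reads after the data were seen), no filter, terms for library sets, mock as reference and leaving out each library. Log2 changes within earlier or later CRAC libraries only, or within a single RNA-seq set, were also not planned beforehand. Nor were fits without the second set of wild-type RNA-seq or without the sparse eIF4A libraries 52 and 53. Ratios were compared by an exact permutation test in scipy 1.17.1. The edgeR, DESeq2 and limma fits were tested on simulated counts modelled on Ded1 CRAC and RNA-seq libraries. Sparse mRNAs and the eIF4B and eIF4A libraries were not simulated, so those tests do not cover them. Depth ranged from 347 counted reads in an untagged library to 46538567 in RNA-seq.

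Genes other than DED1 and DBP1 were named by rule: the 4 DEAD-box and 3 partner mRNAs with the largest called RNA-seq change, the 5 most alike in pattern (Pearson correlation of log2 group means, pseudocount 1) and the 5 with most Ded1 binding per RNA. DHH1, PRP5, TIF1, TIF2 and EAP1 were named after their values were seen. The genes and lists were chosen with earlier results of these data known. Sequences are from the study's oligonucleotide list, and gene positions from RefSeq.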

Additional observations from a re-analysis of the deposited data

Results flagged for a closer look

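DBP1 in the eIF4A control library 11 measured 41.9 RPM (52 reads), while the other 5 control libraries lay between 0 and 7.39 RPM. It was flagged because the gap to the nearest library was 0.824 of the whole range, past Dixon's critical value of 0.625 for 6 libraries. In the eIF4A GE 16 min group, library 12 held 4.37 RPM of DBP1 and the other 3 libraries held none, so the gap was the whole range. That value rests on 2 reads, under its floor of 3 counts (6.55 RPM). With the other libraries at 0, any read in 1 library gives that gap. In all, 13 groups were tested in this way. Dixon's critical values are for normally distributed values, so the rate of chance flags among such sparse counts is not known.

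The heat shock change of YOR203W, the row next to DED1, was larger in xrn1Δ than in wild type by 1.70 on the log2 scale (SE 0.28, edgeR interaction test, adjusted p = 4.73e-08). In wild type YOR203W went from 1656, 1698 and 1953 to 240.6, 194.3 and 305.0 spike-scaled reads, and in xrn1Δ from 1677 and 2510 to 830.8 and 1072. For DED1 the same difference was 0.58 and did not pass (adjusted p = 0.104).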

How the results depend on the processing

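Of 69 values for DED1 and DBP1, 52 were unchanged under every alternative tried, although 22 of these, none of them called, changed sign in at least 1. For log2 changes, unchanged means the same side of the threshold. For the ratios of DED1 to DBP1 reads, which had no p-value under the alternatives, it means a shift within the larger group SD. For DED1 in eIF4B at 16 min of GE, the log2 change was −0.51 with reads on mRNAs as library size, −0.80 with TMM and −1.74 against mock, none of them called, and −2.33 to −1.97 when each library was left out, with 5 of 7 not called. At 30 s DED1 was called with DESeq2 (−2.30), without the filter (−2.30) and with a term for earlier and later libraries (−3.18), and was −0.24 with reads on mRNAs and −0.41 with TMM, neither called. In eIF4B heat shock it was not called with reads on mRNAs (−1.51), TMM (−1.36) or later libraries only (−1.04). Mapped reads as library size, an alternative chosen after seeing the data, changed no call of DED1 in eIF4B. The Ded1 against eIF4A difference of DED1 was 1.98 with TMM. DBP1 in Ded1 CRAC was called at 30 s of GE by DESeq2 (−4.90, with both GE libraries at 0 reads, so no bound), and in heat shock with reads on mRNAs (3.19), TMM (3.55), DESeq2 (2.96) and later libraries only (9.90, against 1 control with 0 reads). DBP1 in eIF4B relative to RNA-seq after GE was called without the second RNA-seq set (−3.65) and ranged from −5.48 to −1.86 with libraries left out.

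In RNA-seq, reads on mRNAs and TMM turned DED1 to higher in wild-type heat shock (0.36 and 0.87) and to lower with CHX against heat shock (−0.43 and −0.90). By construction these scalings moved the median of all mRNAs in heat shock from −0.77 to −0.37 and 0.10. The xrn1Δ minus wild-type heat change of DED1 was called under both (0.58 and 0.58), and in heat shock xrn1Δ against wild type was not called with TMM (DED1 0.32, DBP1 0.25) or, for DED1, with a set term (0.43). The set term also ended the DBP1 call for CHX against heat shock (−0.46). With libraries left out, DBP1 ranged over 0.42 to 0.77 (CHX against control), −0.84 to −0.48 (CHX against heat shock), 0.42 to 0.69 (xrn1Δ against wild type in heat shock) and 0.22 to 0.92 (xrn1Δ minus wild-type heat change), and DED1 over 0.25 to 0.63 (ski2Δ heat shock), 0.40 to 0.73 (xrn1Δ heat shock), 0.47 to 0.86 (xrn1Δ against wild type) and 0.41 to 0.80 (xrn1Δ minus wild-type heat change). The cause of these shifts was not tested beyond the scaling.

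Counts of called mRNAs moved by more than 1.5 times in several comparisons. Between the lowest and highest alternative, apart from those that leave out a library, they went from 183 to 1173 (Ded1, 30 s, 473 as reported), 52 to 618 (Ded1, 16 min, 226), 0 to 2076 (eIF4B, 30 s, 594), 124 to 1709 (eIF4B, 16 min, 1017), 481 to 1820 (eIF4B, heat shock, 1441), 126 to 422 (eIF4B, CHX against control, 189), 100 to 618 (eIF4B, CHX against heat shock, 411), 5 to 243 (eIF4A, 16 min, 7), 30 to 998 (eIF4A, heat shock, 365), 41 to 109 (Ded1 against eIF4B, 34) and 33 to 300 (Ded1 against eIF4A, 96). In RNA-seq they went from 4 to 17 (ski2Δ against wild type in control, 16), 4 to 177 (the same in heat shock, 138), 0 to 2 (ski2Δ minus wild-type heat change, 2) and 1410 to 2553 (xrn1Δ minus wild-type heat change, 1559). For binding relative to RNA-seq they went from 235 to 1046 (Ded1, GE, 715), 30 to 92 (Ded1, heat shock, 21), 80 to 1053 (eIF4B, GE, 923), 0 to 16 (eIF4B, heat shock, 0), 0 to 3 (eIF4B, CHX, 0), 0 to 19 (eIF4A, GE, 12) and 0 to 3 (eIF4A, heat shock, 1). DBP1 in eIF4A, with 9 reads or fewer in 20 of 21 libraries, is limited by depth. No paired analysis was possible because replicate numbers are library numbers and no 2 groups share one.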

Other observations

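The YOR203W row was looked at after its values were seen. Its reads per DED1 read in wild-type RNA-seq were 0.163 to 0.177 in control, 0.0651 to 0.0750 after glucose withdrawal, 0.0229 to 0.0245 after heat shock and 0.119 to 0.139 in heat shock with CHX. Its RNA-seq level fell in glucose withdrawal (log2 change −1.67, edgeR, adjusted p = 1.33e-14) and in heat shock (−2.84, adjusted p = 2.06e-45), and was higher in heat shock with CHX than without (2.47, adjusted p = 1.67e-31), while DED1 did not pass the test in these comparisons. In unstressed CRAC the ratio was 0.489 to 0.683 in the 4 eIF4B libraries and 0.0184 to 0.0221 in the 3 Ded1 libraries, which carry the tag at the DED1 start. The edgeR difference of YOR203W between Ded1 and eIF4B control libraries was −3.92 on the log2 scale (adjusted p = 0.0511) and did not pass. Between Ded1 and eIF4A control libraries it was −0.83 (SE 0.83, adjusted p = 0.625) and did not pass either. The ratio was 0.134 to 0.585 in the 5 eIF4A control libraries with at least 50 DED1 reads. The part of the tag in these values was not tested.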
